A study of Homo sapiens with 40 samples.

Results

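The 45 genes described here act in the repair of DNA double-strand breaks and of interstrand crosslinks, the latter by the Fanconi anaemia pathway. They were listed by symbol, and each was found through its Ensembl identifier in a deposited table of 19962 genes. All 45 were measured above the filter on low counts that left 11428 genes to test, so no member drops out of the counts given below. By role they are 8 damage sensors and kinases, 4 chromatin mediators, 11 recombination genes, 4 genes that process joint molecules, 8 end-joining genes and 10 Fanconi genes.

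A broken chromosome is sensed by the MRE11-RAD50-NBN complex and by the kinases ATM and ATR, which act through CHEK2 and CHEK1, while MDC1, RNF8, RNF168 and TP53BP1 mark the chromatin around the break. Ends are then either joined directly, through the XRCC5-XRCC6 (Ku) ring, PRKDC and LIG4, or resected and copied from the sister chromatid by the machinery of BRCA1, PALB2 and BRCA2. Crosslinked strands are recognised by a core complex of FANC proteins that attaches ubiquitin to FANCD2 and FANCI. Recombination and crosslink repair serve mainly cells that are replicating their DNA, and many of their genes are transcribed from late G1 into S phase.

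The cells were RKO, an established human colorectal carcinoma line, in all groups carrying a doxycycline-inducible Cas9 and GFP. Each of 3 derived lines also expressed BFP and a pair of guide RNAs from U6 promoters, against IGF2BP2 (sgIGF2BP2), IGF2BP3 (sgIGF2BP3) or the non-coding AAVS1 locus (sgAAVS1), and was sorted for BFP, so each line is a sorted population. IGF2BP2 and IGF2BP3 encode RNA-binding proteins that act on the stability and translation of mRNAs. Every line was given doxycycline (Dox) at 250 ng/mL for 72 hours or DMSO, and the sgIGF2BP2 and sgIGF2BP3 lines were also transfected for 48 hours with 75 nM siRNA against their own target (siIGF2BP2, siIGF2BP3) or with a non-targeting siRNA (siControl). Dox is not named in the labels of the siRNA groups. All cells received 250 µM of the nucleoside s4U for 2 hours before harvest. Each of the 10 groups holds 4 libraries, and each library comes from 1 culture well, so the p-values measure the spread between wells of 1 line.

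The guides decide what is cut in each Dox comparison, and they are shown 5′ to 3′ with the 10 bases next to the PAM in capitals.
IGF2BP2 guide 1: atatgtgacgTTGACAACGG
IGF2BP2 guide 2: gtgcgctgagGTTCAACCCT
IGF2BP3 guide 1: tggcaccgacTGATAGAGCT
IGF2BP3 guide 2: gaagatacttTCTAGGTCCG
AAVS1 guide 1: cgctgtgcccCGATGCACAC
AAVS1 guide 2: ggcgcgtcgcTCGCTCGCTC
The IGF2BP2 guides matched exons 5 (chr3:185692722-185692741) and 10 (chr3:185672630-185672649) of a 16-exon transcript, and the IGF2BP3 guides matched exons 11 (chr7:23319200-23319219) and 1 (chr7:23470045-23470064) of a 15-exon transcript, all in GRCh38. AAVS1 guide 1 matched chr19:55117789-55117808, in the promoter window of PPP1R12C. No match of AAVS1 guide 2 was found in the promoter windows, the only sequence searched for it.

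The targeted genes followed their labels. IGF2BP2 stood at 85.3 ± 1.58 CPM (read counts scaled to the library total, mean ± SD, n = 4) in sgIGF2BP2 cells with DMSO and at 33.9 ± 3.50 with Dox, and at 108.4 ± 4.10 with siControl and 30.2 ± 1.08 with siIGF2BP2. IGF2BP3 stood at 180.2 ± 4.09 CPM in sgIGF2BP3 cells with DMSO and at 56.2 ± 3.62 with Dox, and at 169.8 ± 4.78 with siControl and 24.7 ± 1.56 with siIGF2BP3. Library totals ranged from 10018181 to 24822807 counts (median 13468792). The epithelial and intestinal genes KRT8, KRT18, EPCAM and CDX2 were present (12.3 CPM or more in every library), whereas KRT20 and CDX1 were at 0 in every library and KRT19, CDH1, VIL1, LGALS4 and CEACAM5 did not exceed 0.305 CPM. Of 9 markers of blood, vessel and stromal cells, CD68 reached 3.52 CPM, COL1A1 1.10 CPM and the other 7 at most 0.301 CPM. The library siIGF2BP2 replicate 3 stood furthest from its group: the SD over 7820 genes of its log2 difference from the other 3 libraries was 0.149, against at most 0.127 in any other library. In that library the difference fell with exon length (Spearman rho −0.534 across genes, a description). sgIGF2BP2 Dox replicate 2, with 0.127, leaned the same way (rho −0.315). Results that rest on these libraries are given with and without them.

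The members spanned a wide range of levels. Exon length here merges all annotated exons of a gene, so values and ranks per kilobase depend on its annotated transcripts. Per kilobase of annotated exon, the highest were the end-joining genes XRCC6 (183.6 CPM per kb, mean of 40 libraries), XRCC5 (86.5) and PRKDC (30.8), which together form the DNA-dependent protein kinase that holds broken ends. FANCI (21.9 CPM per kb) and NBN (19.7) followed. The lowest were RAD50, the coiled-coil partner of MRE11 and NBN, at 0.223 CPM per kb, the recombination gene RAD51B at 0.614, and FANCM, the DNA translocase of the Fanconi core complex, at 1.14. In these counts RAD50 was thus far below its partners NBN and MRE11 (2.48 CPM per kb), and its lowest count in any library was 18. The reason for its low count was not tested. LIG4, which seals the break, stood at 3.15 CPM per kb and its partner XRCC4 at 4.40. The 10 group means of a member lay close together: the highest was 1.11 to 1.47 times the lowest (median 1.24, the same as the median of 1.24 over all tested genes). FANCD2 had the widest range (1.47 times), then LIG4 (1.46), and NBN and MUS81 the narrowest (1.11). For 17 of the 45 members (37.8%, against 12.8% of all tested genes) the lowest group mean was that of sgIGF2BP2 cells with Dox. For 17 (37.8%, against 25.3%) the highest was that of siIGF2BP2.

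**Figure D1:**
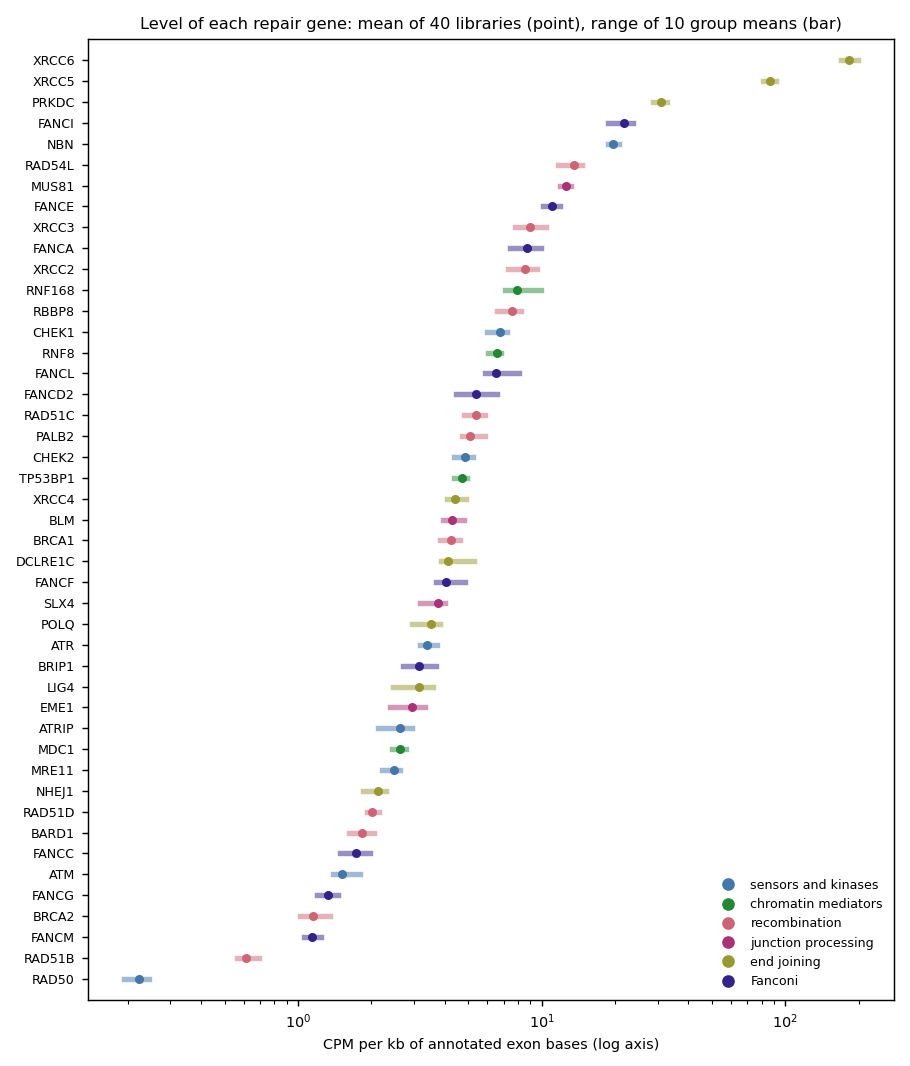
Level of each of the 45 repair genes in CPM per kb of exon (log axis), with the mean of 40 libraries as a point, the range of the 10 group means as a bar and the role as the colour. XRCC6 is highest at 183.6 and RAD50 lowest at 0.223 CPM per kb, and every bar is short beside the spread between genes.

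The members called after cutting of IGF2BP2 were all lower. With Dox in sgIGF2BP2 cells 20 of 45 members fell and none rose at an adjusted p under 0.05 (edgeR quasi-likelihood test with Benjamini-Hochberg adjustment over all tested genes), where 10.4% of all tested genes fell and 10.0% rose. The median log2 fold change of the 45 was −0.16, against 0.01 over all tested genes, and 38 members were below 0. For 19 members all 4 Dox libraries lay below all 4 DMSO libraries, as for 9.13% of all tested genes, and for none the reverse held (8.92%). In bulk RNA, fewer cells that express a gene and less RNA per cell cannot be told apart.

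Among the recombination genes 6 of 11 fell. XRCC2 (chr7:152644779-152676165), which acts in homologous recombination on resected DNA, measured 48.1, 40.1, 49.7 and 47.7 CPM with DMSO and 35.0, 32.4, 38.5 and 35.8 with Dox. The groups did not overlap, although DMSO replicate 2 stood well below the other 3 and only just above the highest Dox library. The log2 fold change of XRCC2 was −0.41 (SE 0.0596, edgeR adjusted p = 2.19e-07), the largest fall among the members. BARD1, the partner of BRCA1 in a ubiquitin ligase, went from 12.6, 11.7, 12.9 and 11.6 CPM to 11.4, 8.40, 9.23 and 10.5, with no overlap (−0.32, SE 0.0976, edgeR adjusted p = 0.0121). The Dox libraries of BARD1 were spread widely, and the call was lost without Dox replicate 2 (−0.23, edgeR adjusted p = 0.119) or DMSO replicate 3 (−0.28, 0.0652). In all, 3 of 15 alternatives lost the BARD1 call, and its weakest value was −0.21. RAD54L, a motor protein of the strand invasion step, fell from 45.5 ± 1.79 to 37.5 ± 2.74 CPM, and BRCA1 from 41.8 ± 2.2 to 35.3 ± 0.871 (n = 4 each). RBBP8 (CtIP), which starts end resection with MRE11, and XRCC3 fell by 0.24 and 0.20 on the log2 scale. BRCA2, which PALB2 brings to the break, was at −0.23 and did not pass the test, and the other 4 recombination genes (PALB2, RAD51B, RAD51C, RAD51D) lay between −0.11 and 0.07.

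Of the 10 Fanconi genes 5 fell. FANCD2 (chr3:10026414-10101930) is the protein that the core complex ubiquitinates, and it measured 45.5, 45.5, 46.6 and 47.0 CPM with DMSO and 36.9, 38.7, 35.8 and 37.9 with Dox. Both groups were tight and lay well apart (log2 fold change −0.30, SE 0.0513, edgeR adjusted p = 5.78e-06). Its partner FANCI (chr15:89243949-89317261) moved from 177.5 ± 3.28 to 146.2 ± 6.84 CPM, also without overlap (−0.28, SE 0.0361, edgeR adjusted p = 1.23e-08). FANCA (chr16:89737549-89816657), a subunit of the core complex, measured 91.6, 92.3, 83.8 and 88.5 CPM with DMSO and 71.6, 72.0, 73.8 and 72.1 with Dox (−0.29, SE 0.0432, edgeR adjusted p = 2.38e-07). The Dox libraries of FANCA lay close together, well below the lowest DMSO library. FANCC, another core subunit, and BRIP1, a helicase that binds BRCA1, fell by 0.23 and 0.22. The core subunits FANCE, FANCF, FANCG, FANCL and FANCM were at −0.08, 0.06, −0.17, −0.17 and −0.09 and did not pass the test.

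In the other roles the calls were spread. POLQ, the polymerase of microhomology-mediated end joining, measured 33.5, 35.1, 32.7 and 35.1 CPM with DMSO and 29.6, 26.2, 27.8 and 27.3 with Dox, with no overlap (−0.30, SE 0.0659, edgeR adjusted p = 0.000485). The abundant end-joining genes XRCC6, PRKDC and XRCC5 fell by less, at −0.16, −0.16 and −0.14 with SE of 0.0320, 0.0368 and 0.0310, so 4 of 8 end-joining genes fell. CHEK1, the kinase downstream of ATR, went from 51.2, 45.5, 46.1 and 46.2 CPM to 39.9, 39.2, 38.3 and 39.8 (−0.26, SE 0.0557). CHEK2 (−0.19) and MRE11 (−0.19, edgeR adjusted p = 0.0432) also fell, while ATM and ATRIP had values of 0.15 and 0.16 that did not pass the test. EME1 and BLM fell among the 4 genes of joint-molecule processing (−0.34 and −0.27). None of the 4 chromatin mediators was called, with values from −0.15 (MDC1) to 0.09 (TP53BP1). Calls near the threshold depended on single libraries: BRIP1 was lost without DMSO replicate 1 or 3 or Dox replicate 1 or 2. Without Dox replicate 2, 17 members fell, and MRE11, whose libraries overlapped, was at −0.18 (edgeR adjusted p = 0.119).

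**Figure D2:**
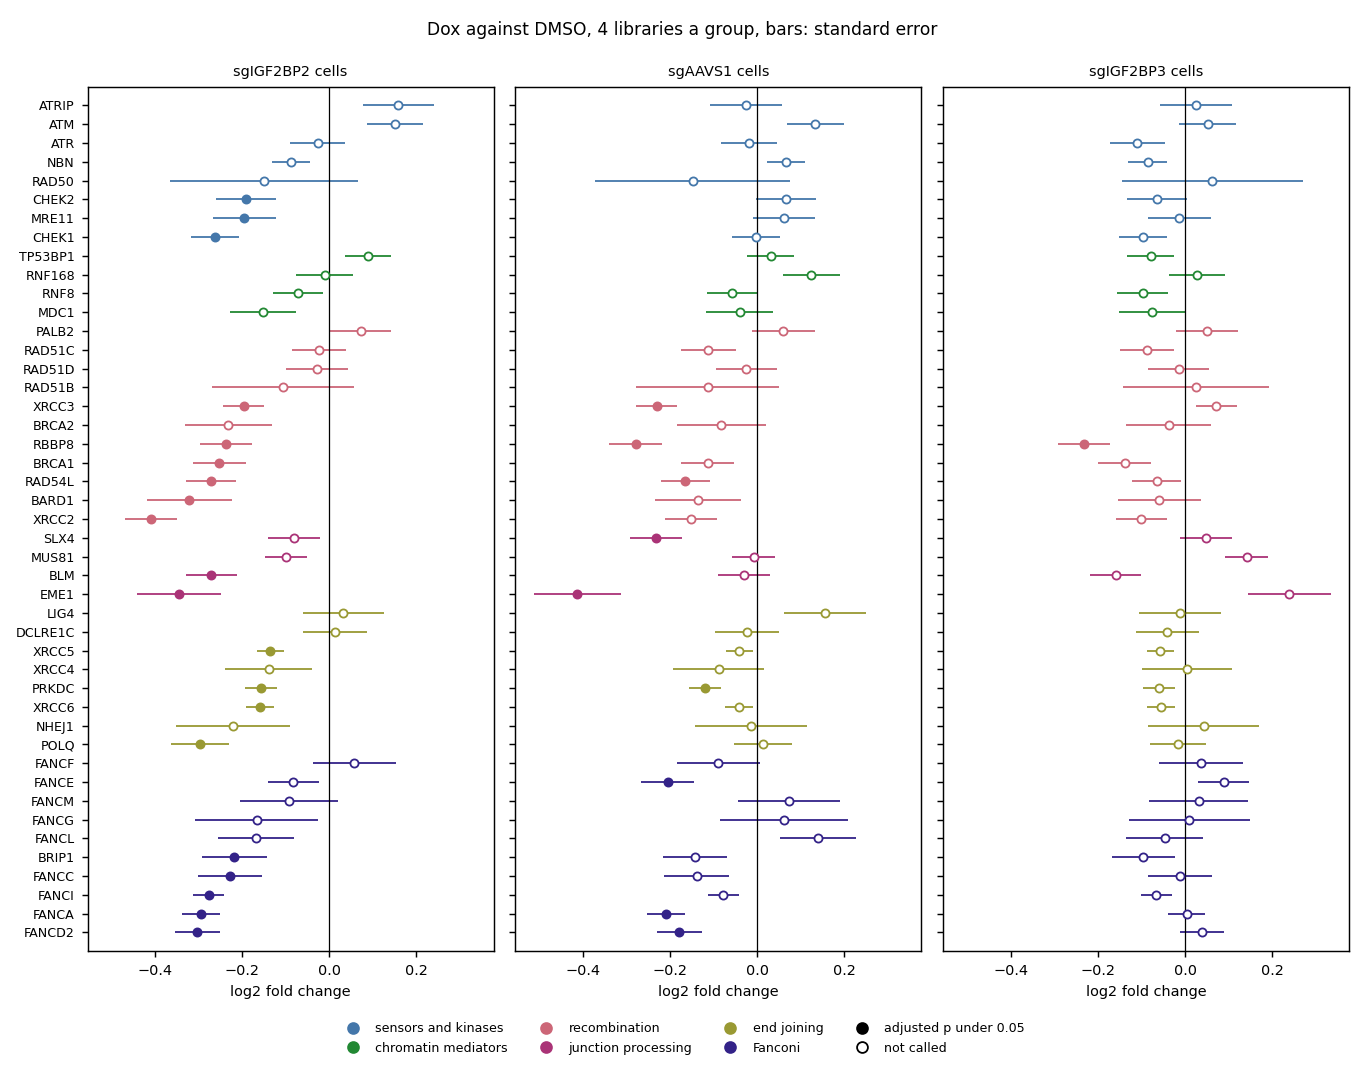
Log2 fold change with Dox against DMSO of each repair gene, grouped by role (colour), in the 3 lines; bars are standard errors and filled points have an adjusted p under 0.05. In sgIGF2BP2 cells 20 filled points lie left of 0, in sgAAVS1 cells 9 and in sgIGF2BP3 cells 1, and no filled point lies right of 0.

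The same Dox treatment also lowered part of the set in the sgAAVS1 control line. There 9 of 45 members fell and none rose, where 8.68% of all tested genes fell and 7.25% rose, and the median of the 45 was −0.04 (0.00 over all tested genes). The 9 were EME1 (−0.41), RBBP8 (−0.28), SLX4 (−0.23), XRCC3 (−0.23), FANCA (−0.21), FANCE (−0.21), FANCD2 (−0.18), RAD54L (−0.16) and PRKDC (−0.12). All 4 Dox libraries lay below all 4 DMSO libraries for 9 members, as for 9.48% of all tested genes, and above them for 1 (8.04%); the 9 are the called genes but RAD54L, and FANCI, which was not called (−0.08).

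EME1 (chr17:50373220-50381483), the partner of the nuclease MUS81, measured 9.40, 11.7, 10.4 and 10.8 CPM with DMSO and 7.35, 7.59, 8.40 and 8.56 with Dox in sgAAVS1 cells (SE 0.0995, edgeR adjusted p = 0.00195). RBBP8 measured 40.5, 38.3, 36.9 and 45.3 CPM with DMSO and 32.9, 32.1, 33.8 and 34.3 with Dox (SE 0.0609, edgeR adjusted p = 0.000595). The DMSO libraries of RBBP8 were spread more widely than the Dox libraries, and the groups did not overlap. SLX4, the scaffold that holds the MUS81-EME1 nuclease, went from 32.4, 33.9, 32.0 and 30.8 CPM to 30.8, 26.9, 25.02 and 26.8, where Dox replicate 1 was only just below the lowest DMSO library. FANCA went from 90.5, 89.9, 85.1 and 84.3 CPM to 75.5, 76.9, 75.1 and 74.8, levels close to those of sgIGF2BP2 cells with Dox. RAD54L lost its call without any of 5 libraries, and FANCE without DMSO replicate 2. No sensor, kinase or chromatin mediator was called in this line.

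Of the 9 falls in sgAAVS1 cells 7 (77.8%) were also among the 20 in sgIGF2BP2 cells (35.0%): EME1, FANCA, FANCD2, PRKDC, RAD54L, RBBP8 and XRCC3. Of all members 44.4% fell in sgIGF2BP2 cells, and the share of all tested genes that fell in both lines was not counted. The Dox effects of these lines correlated at 0.491 over the members and 0.367 over all tested genes (Pearson, a description). The lines share no library. SLX4 and FANCE were at −0.08 each in sgIGF2BP2 cells and not called there.

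In sgIGF2BP3 cells Dox changed 1 member. RBBP8 fell from 38.9, 40.7, 46.3 and 41.4 CPM to 35.0, 36.5, 37.2 and 33.5, with no overlap (−0.23, SE 0.0599, edgeR adjusted p = 0.0182), where 1.01% of all tested genes fell and 1.64% rose. Dox and DMSO libraries did not overlap for 5 members with Dox lower (4.59% of all tested genes) and 2 with Dox higher (5.76%). The RBBP8 call was lost without DMSO replicate 3 (edgeR adjusted p = 0.133) or Dox replicate 4 (0.126). RBBP8 was the only member called in all 3 lines, at −0.28 in sgAAVS1, −0.24 in sgIGF2BP2 and −0.23 in sgIGF2BP3 cells. Its libraries overlapped in sgIGF2BP2 cells. The median of the 45 in sgIGF2BP3 cells was −0.02. FANCA and FANCD2, which fell in both other lines, had values of 0.00 and 0.04 in this line. EME1 went from 9.26 ± 0.907 to 10.9 ± 0.390 CPM (n = 4 each; log2 fold change 0.24), which did not pass the test.

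The differences between lines were tested directly. The Dox effect was lower in sgIGF2BP2 than in sgAAVS1 cells for 3 members (2.97% of all tested genes) and higher for none (4.01%). These were POLQ (difference in log2 fold change −0.31, SE 0.0933, edgeR adjusted p = 0.0290), CHEK1 (−0.26, SE 0.0787, 0.0312) and FANCI (−0.20, SE 0.0509, 0.00813). POLQ and CHEK1 had Dox values of 0.01 and −0.0032 in sgAAVS1 cells. For XRCC2 the difference was −0.26 and missed the threshold (edgeR adjusted p = 0.0503). The POLQ and CHEK1 differences were each lost without sgAAVS1 DMSO replicate 2, and the count over the leave-one-out fits ran from 1 to 6, with 1 called without that library or without sgAAVS1 Dox replicate 1, and 6 without sgAAVS1 DMSO replicate 4 or sgIGF2BP2 DMSO replicate 2. POLQ was also lost without sgIGF2BP2 Dox replicate 2 (−0.28, edgeR adjusted p = 0.0689).

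Against sgAAVS1 cells the Dox effect in sgIGF2BP3 cells was higher for 6 members (4.53% of all tested genes) and lower for none (3.25%). EME1 differed most (0.65, SE 0.138, edgeR adjusted p = 0.00125), then XRCC3 (0.30), FANCE (0.29), SLX4 (0.28), FANCD2 (0.22) and FANCA (0.21). All 6 had fallen in sgAAVS1 cells, whose libraries enter both values, and none was called within sgIGF2BP3 cells. Without sgAAVS1 DMSO replicate 2 the count was 2, and without sgIGF2BP3 DMSO replicate 4 it was 3. FANCD2 passed narrowly (edgeR adjusted p = 0.0488).

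Against sgIGF2BP2 cells the Dox effect in sgIGF2BP3 cells was higher for 7 members (1.69% of all tested genes) and lower for none (1.23%). These were EME1 (0.58), FANCD2 (0.34), XRCC2 (0.31), FANCA (0.30), XRCC3 (0.27), MUS81 (0.24) and FANCI (0.21). FANCD2 (SE 0.0720, edgeR adjusted p = 0.00206) and FANCA (SE 0.0606, 0.00130) were the firmest, and both are named above as falling with Dox in sgIGF2BP2 cells. MUS81, the nuclease partner of EME1, had a value of −0.10 in sgIGF2BP2 cells and 0.14 in sgIGF2BP3 cells, neither of which was called alone. Without sgIGF2BP2 Dox replicate 2, MUS81 (0.24, edgeR adjusted p = 0.0544) and XRCC2 (0.26, 0.0802) were lost, and at the depth of the shallowest library 3 members were called.

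**Figure D3:**
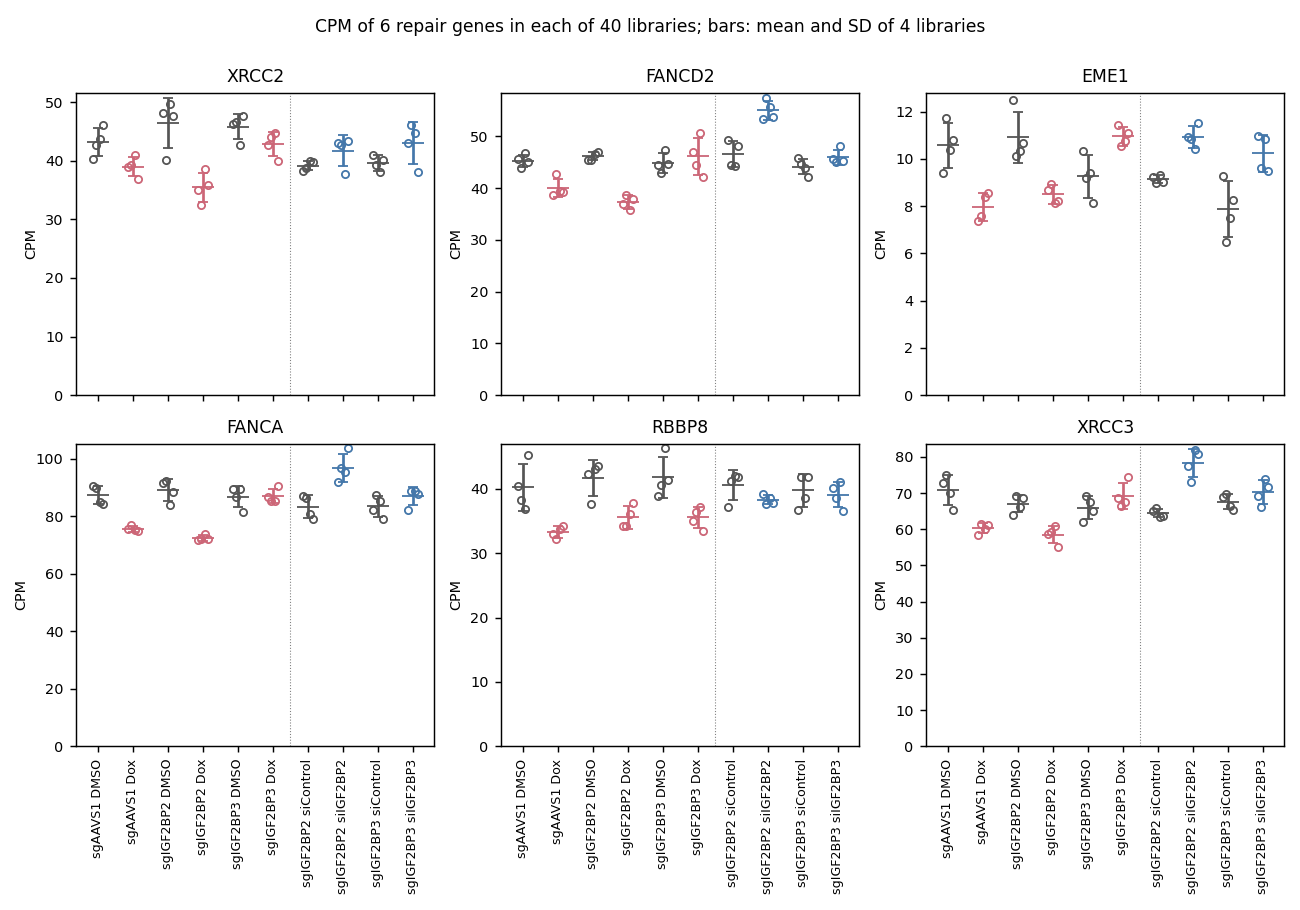
CPM of XRCC2, FANCD2, EME1, FANCA, RBBP8 and XRCC3 in each of the 40 libraries by group, with the mean and SD of 4 libraries; Dox groups are red, targeting siRNA groups blue and DMSO or siControl groups grey. The mean of FANCA with Dox is 75.6 CPM in sgAAVS1, 72.4 in sgIGF2BP2 and 87.0 in sgIGF2BP3 cells, and siIGF2BP2 cells are highest for FANCD2, FANCA and XRCC3.

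Of the members, 5 lie on chromosome 17. In sgAAVS1 cells with Dox, SPOP (chr17:49598884-49678234) fell from 36.7 ± 1.48 to 11.4 ± 1.22 CPM (n = 4 each), and over the stretch of 17q distal to SPOP, 250 tested genes had a median log2 fold change of −0.17, against 0.02 and 0.01 in sgIGF2BP2 and sgIGF2BP3 cells. EME1, RAD51C and BRIP1 lie in this stretch, at −0.41, −0.11 and −0.14 in sgAAVS1 cells, and RAD51C and BRIP1 did not pass the test. RAD51C, a recombination gene, measured 30.9, 34.5, 34.9 and 35.8 CPM with DMSO and 32.2, 31.8, 31.6 and 30.5 with Dox, and the groups overlapped. RAD51D and BRCA1, on the other side of SPOP, were at −0.03 and −0.11. In sgIGF2BP2 cells EME1, RAD51C, BRIP1, RAD51D and BRCA1 were at −0.34, −0.02, −0.22, −0.03 and −0.25, and in sgIGF2BP3 cells at 0.24, −0.09, −0.10, −0.02 and −0.14. EME1 was called lower in both sgAAVS1 and sgIGF2BP2 cells. The part of the distal 17q change in the EME1 fall in sgAAVS1 cells was not tested. Nor was its part in the EME1 difference between sgIGF2BP3 and sgAAVS1 cells. RNF168 is the only member between IGF2BP2 and the end of 3q, and it was at −0.01 with Dox in sgIGF2BP2 cells, where the 48 tested genes of that stretch had a median of −0.08.

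Other gene groups are given beside the members. The shares of all tested genes that rose and fell with Dox were 10.0% and 10.4% in sgIGF2BP2, 7.25% and 8.68% in sgAAVS1 and 1.64% and 1.01% in sgIGF2BP3 cells. With Dox, 20 of 20 p53 target genes rose in sgIGF2BP2 cells (median 0.60), 12 of 20 in sgAAVS1 cells (0.27) and 11 of 20 in sgIGF2BP3 cells (0.23). Examples in sgIGF2BP2 cells were BTG2 (12.1 to 31.0 CPM), GDF15 (4.04 to 9.87 CPM) and BBC3 (10.4 to 24.9 CPM). Genes of DNA replication fell, 26 of 30 in sgIGF2BP2 cells (median −0.27), 12 of 30 in sgAAVS1 cells (−0.12) and 2 of 30 in sgIGF2BP3 cells (−0.07). MCM7, a subunit of the replicative helicase, went from 699.4 to 548.2 CPM in sgIGF2BP2 cells. Of 60 other repair genes 58 were tested, and in sgIGF2BP2 cells 16 fell (27.6%) and 2 rose. EXO1, the nuclease of long-range resection, was among the falls (62.8 to 48.0 CPM, −0.38), and so was RAD54B (−0.45). In sgAAVS1 cells 6 of the 58 fell (10.3%, near the share of all tested genes) and 1 rose (ERCC4, 0.37). The falls included FAAP100 (−0.41), a core complex subunit, CENPX (−0.30) and H2AX (−0.26), the histone phosphorylated at breaks. Their positions relative to SPOP are not given here. The part of the change distal to SPOP in these falls was not tested. In sgIGF2BP3 cells 1 of the 58 fell (1.72%; ETAA1, −0.34). The part of the p53 and replication changes in the members' values was not tested.

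Promoters were searched for the letters of E2F sites because several of these genes are known E2F targets. Of the 45 members, 41 had a RefSeq promoter window (GRCh38.p14; 250 bases before the start and 50 after it), and NBN, XRCC5, FANCI and PRKDC had none. The letters TTTCCCGC, TTTCGCGC, TTTGCCGC or TTTGGCGC, on either strand, occurred in 5 of 41 windows (12.2%), against 6.90% of the windows of 9360 tested genes. The matches are shown within at most 30 bases on the gene's strand, with the match in capitals.
FANCA: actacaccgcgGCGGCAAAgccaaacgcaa
FANCC upstream: ccggggcttccGCGCGAAAccgggaacact
FANCC near the start: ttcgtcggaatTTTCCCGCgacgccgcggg
FANCD2: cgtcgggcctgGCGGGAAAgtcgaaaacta
XRCC2: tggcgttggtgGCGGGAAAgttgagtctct
XRCC6: gtcgcttccctGCGCCAAA
They lie at chr16:89816801-89816830, chr9:95317863-95317892, chr9:95317737-95317766, chr3:10026424-10026453, chr7:152676102-152676131 and chr22:41621326-41621344. The FANCD2 and XRCC2 matches have the same 8 letters, GCGGGAAA, close to the start. All 5 of these genes fell with Dox in sgIGF2BP2 cells (median −0.29), as did 12 of the 36 members without the letters (median −0.15). Over all tested genes the medians were −0.04 with and 0.01 without the letters. The shares of all tested genes that fell, with and without the letters, were not counted, and 5 members are few. With siIGF2BP2 the members' medians were 0.12 with and 0.07 without the letters, against 0.03 and 0.01 over all tested genes. The letters TTTGAA or TTCGAA (cell cycle homology region, either strand) occurred in 12.2% of members' windows and 15.2% of tested genes' windows, and CCAAT in 53.7% and 43.7%. A match of letters describes the window only.

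Loss of IGF2BP2 through siRNA gave another picture: more members rose than fell. With siIGF2BP2, 13 of 45 rose and 5 fell, where 18.4% of all tested genes rose and 18.4% fell, and the median was 0.07 (0.01 over all tested genes). The share of members that rose was 28.9%. No overlap between libraries was seen for 8 rises, against 15.0% of all tested genes, and for 1 fall, against 15.6%. Rises were most frequent among the Fanconi genes, of which 6 of 10 rose and none fell.

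FANCF (chr11:22622890-22625841), an adaptor of the core complex, measured 11.8, 10.7, 10.0 and 10.9 CPM with siControl and 16.4, 13.8, 13.9 and 13.5 with siIGF2BP2 (0.39, SE 0.0925, edgeR adjusted p = 0.000458). Replicate 1 with siIGF2BP2 was highest, and all 4 lay above every siControl library. FANCL, the ubiquitin ligase of the core complex, went from 16.4, 15.0, 16.5 and 14.8 CPM to 20.7, 18.4, 17.5 and 21.6 (0.31, SE 0.0828, edgeR adjusted p = 0.00173). Its substrate FANCD2 went from 49.3, 44.5, 44.2 and 48.2 CPM to 53.4, 57.4, 55.6 and 53.7 (0.24, SE 0.0485, edgeR adjusted p = 5.69e-05), and FANCA from 83.3 ± 4.03 to 96.9 ± 4.90 CPM (n = 4 each). For FANCL, FANCD2 and FANCA the groups did not overlap. BRIP1 rose by 0.27 with siIGF2BP2 replicate 3 (25.2 CPM) inside the siControl range, and FANCI by 0.13 with overlap. FANCG and FANCM, the Fanconi genes of lowest level per kilobase, were not called, nor were FANCC and FANCE.

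Outside the Fanconi genes the largest rise was that of DCLRE1C (Artemis; chr10:14897359-14954432), the nuclease that opens hairpin ends for joining. It measured 26.5, 27.5, 26.2 and 23.1 CPM with siControl and 33.9, 32.7, 34.4 and 32.2 with siIGF2BP2, with the groups well apart (0.36, SE 0.0691, edgeR adjusted p = 1.99e-05). XRCC3 (chr14:103697609-103715504), which works in recombination with RAD51C, went from 64.9, 65.9, 63.4 and 63.7 CPM to 77.5, 73.1, 81.8 and 80.9, also without overlap (0.28, SE 0.0453, edgeR adjusted p = 6.67e-07). EME1 rose by 0.26, ATM by 0.22, RNF168 by 0.21, PALB2 by 0.19 and BRCA1 by 0.18 on the log2 scale. ATM, the kinase that responds to breaks, ran from 38.3 to 46.0 CPM with siIGF2BP2 and from 35.4 to 38.9 with siControl, so the groups overlapped.

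The falls with siIGF2BP2 were LIG4 (−0.25), ATRIP (−0.22), the ubiquitin ligase RNF8 (−0.15), PRKDC (−0.12) and XRCC6 (−0.10), and 3 of the 5 are end-joining genes. PRKDC measured 490.8, 464.3, 482.8 and 481.6 CPM with siControl and 465.7, 461.4, 374.7 and 463.4 with siIGF2BP2. The low value belongs to replicate 3, and without that library PRKDC was at −0.05 (edgeR adjusted p = 0.194). LIG4 went from 13.7, 12.1, 13.0 and 12.1 CPM to 12.5, 10.8, 9.44 and 10.5 with overlap, and its call was lost without any of 5 libraries, replicate 3 included (−0.19, edgeR adjusted p = 0.159). Without siIGF2BP2 replicate 3, 13 members rose and 2 fell: LIG4, PRKDC, ATRIP and PALB2 were lost, and BRCA2 was gained (0.30, edgeR adjusted p = 0.0102).

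**Figure D4:**
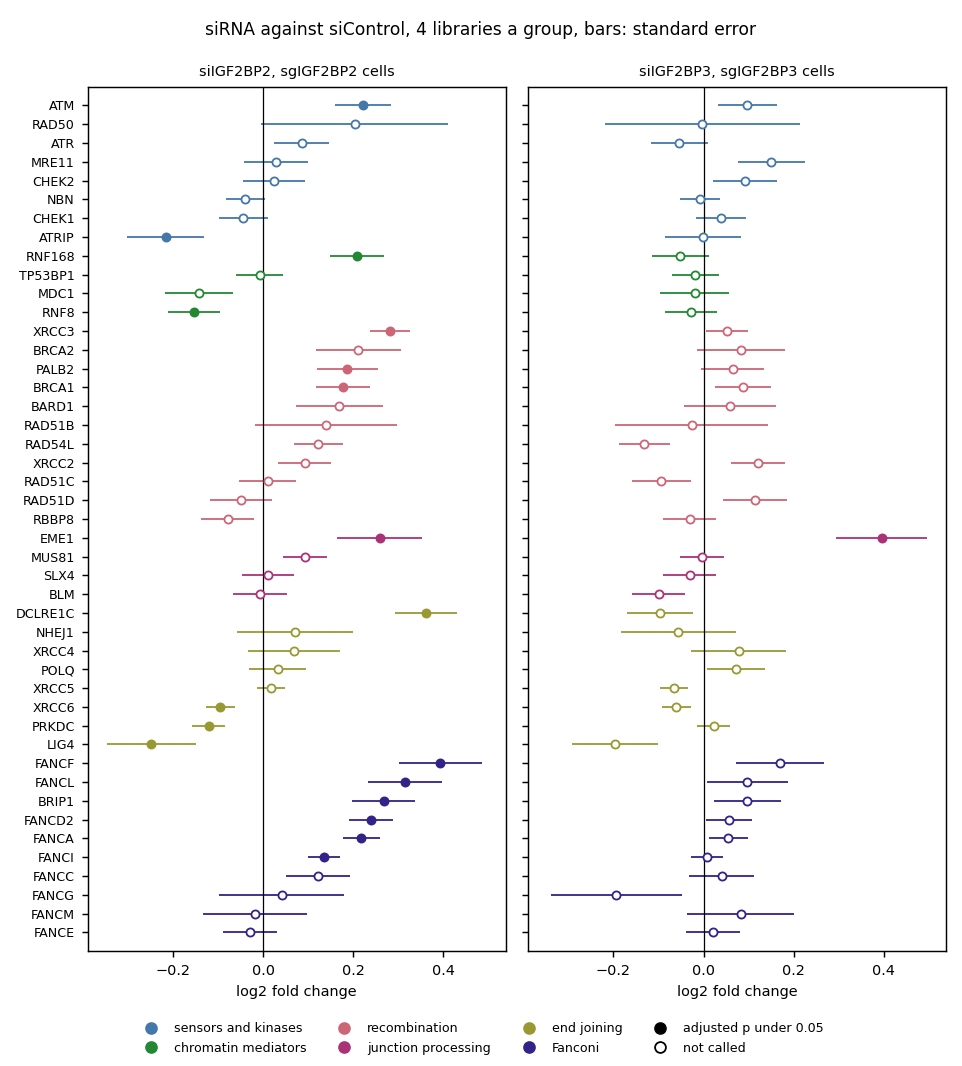
Log2 fold change with the targeting siRNA against siControl of each repair gene, grouped by role (colour), for siIGF2BP2 in sgIGF2BP2 cells and siIGF2BP3 in sgIGF2BP3 cells; bars are standard errors and filled points have an adjusted p under 0.05. With siIGF2BP2, 13 filled points lie right and 5 left of 0, and with siIGF2BP3 only EME1 is filled.

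With siIGF2BP3, 1 of 45 members rose and none fell, where 0.936% of all tested genes rose and 1.40% fell. EME1 measured 9.28, 6.49, 7.51 and 8.27 CPM with siControl and 10.99, 9.63, 10.8 and 9.51 with siIGF2BP3 (0.40, SE 0.101, edgeR adjusted p = 0.0147). EME1 was the 1 member without overlap upwards (4.56% of all tested genes), and there was none downwards (5.4%). SiControl replicate 2 was the lowest, and without it the value was 0.30 (edgeR adjusted p = 0.175). The call was also lost without siControl replicate 3 or siIGF2BP3 replicate 1 or 3, and after reads were drawn at random down to the depth of the shallowest library. The other members lay between −0.20 and 0.17, and the median of the 45 was 0.02.

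The siRNA effects differed in 6 members, with 5 lower for siIGF2BP3 than for siIGF2BP2 (8.82% of all tested genes) and 1 higher (9.88%). DCLRE1C differed most (−0.46, SE 0.101, edgeR adjusted p = 0.00044), with effects of 0.36 for siIGF2BP2 and −0.10 for siIGF2BP3. RNF168 (−0.26), RAD54L (−0.25), XRCC3 (−0.23) and FANCA (−0.16) were also lower and PRKDC was higher (0.14). FANCA passed narrowly (edgeR adjusted p = 0.0454). Without siIGF2BP2 replicate 3, PRKDC was no longer called and 6 members were lower, and without sgIGF2BP3 siControl replicate 2 the count was 2. It was 3 without siIGF2BP3 replicate 1 or sgIGF2BP2 siControl replicate 3 or 4.

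Cutting and siRNA against IGF2BP2 were then set side by side, since they share no library. Of the 20 members that fell with Dox and the 18 that changed with siIGF2BP2, 9 were called in both (45% and 50%). As 44.4% of all members fell with Dox, the 50% is near the share over the whole set. With siIGF2BP2, 28.9% of all members rose and 11.1% fell, so the 45% is near the share called there too. The share of all tested genes called in both was not counted. The log2 fold changes of the comparisons correlated at −0.165 over the members and 0.126 over all tested genes (Pearson, a description). BRCA1, BRIP1, EME1, FANCA, FANCD2, FANCI and XRCC3 fell with Dox and rose with siIGF2BP2, whereas PRKDC and XRCC6 fell in both, PRKDC only with siIGF2BP2 replicate 3 included. Every Dox call was a fall and 13 of the 18 siIGF2BP2 calls were rises. Opposite directions in most shared calls therefore need no link between the comparisons. The rises of BRCA1 and EME1 only reached the DMSO level. Means with DMSO, siControl and siIGF2BP2 were 41.84, 37.68 and 42.45 CPM for BRCA1 and 10.91, 9.143 and 10.93 for EME1. BRIP1, FANCA, FANCD2, FANCI and XRCC3 stood further above DMSO with siIGF2BP2, FANCI the least (184.4 against 177.5 CPM). For FANCD2 the Dox libraries lay at 35.8 to 38.7 CPM and the siIGF2BP2 libraries at 53.4 to 57.4, with DMSO and siControl between them at 44.2 to 49.3. XRCC2, POLQ, CHEK1 and BLM fell with Dox and were at 0.09, 0.03, −0.04 and −0.01 with siIGF2BP2. DCLRE1C, FANCF and FANCL rose with siIGF2BP2 and were at 0.01, 0.06 and −0.17 with Dox, and none was called there. The siRNA and Dox arms differ in time (48 and 72 hours) and in transfection, and these cannot be told apart from the means of depletion. IGF2BP3 was also lower with Dox in sgIGF2BP2 cells, as given above.

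**Figure D5:**
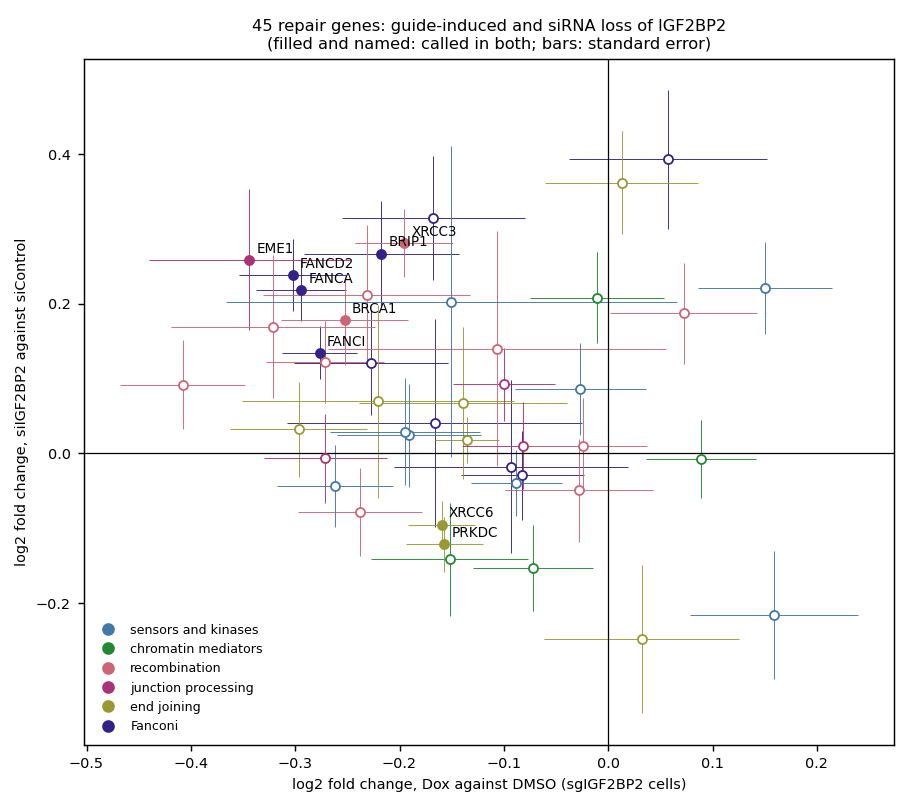
Log2 fold change of each repair gene with Dox against DMSO in sgIGF2BP2 cells (horizontal) and with siIGF2BP2 against siControl (vertical), with standard errors; filled and named points were called in both. Of the 9 named genes 7 lie at upper left, lower with Dox and higher with siIGF2BP2, and XRCC6 and PRKDC lie at lower left. All 20 members called with Dox were lower, and 13 of the 18 called with siIGF2BP2 were higher.

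The same lists are given for the siRNA arms, with no test of a difference from the Dox arms. With siIGF2BP2, where 18.4% of all tested genes rose and 18.4% fell, 7 of 30 replication genes rose (23.3%) and 2 fell (6.67%). Of 20 p53 targets 5 rose (25%) and 7 fell (35%), and of 58 other repair genes 16 rose (27.6%) and 7 fell (12.1%). CCNE1, the cyclin that drives entry into S phase, went from 53.9 to 30.1 CPM (−0.83), while E2F1 (82.8 to 105.5 CPM) and RRM2 (345.6 to 416.5 CPM) rose. EME2, the paralog of EME1, rose from 57.2 to 73.5 CPM, RMI1, a partner of BLM, from 10.2 to 13.9, and EXO1 fell from 61.6 to 51.0. With siIGF2BP3 none of the 58 other repair genes was called, 2 replication genes rose and 2 fell, and 1 p53 target rose and 1 fell.

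The siControl cells differ from DMSO cells by transfection and by duration together, which cannot be told apart. These groups are also the controls of the comparisons above, so their values are given for reference only. In sgIGF2BP2 cells 6 members were lower with siControl than with DMSO (8.16% of all tested genes) and 1 was higher (10.2%). In sgIGF2BP3 cells 8 were lower (8.54%) and 1 was higher (10.9%). Libraries did not overlap for 6 lower members (9.6%) and 1 higher (10.7%) in sgIGF2BP2 cells, and for 8 lower (9.74%) and 1 higher (12.2%) in sgIGF2BP3 cells. The higher gene was RNF168, the ligase that ubiquitinates histones at breaks, in both lines: 39.0 ± 0.858 against 45.7 ± 3.50 CPM in sgIGF2BP2 cells and 39.8 ± 1.33 against 45.4 ± 2.37 in sgIGF2BP3 cells (n = 4 each). The lower genes in sgIGF2BP2 cells were XRCC2 (−0.26), BLM (−0.22), RAD51C (−0.21), BRCA1 (−0.16), XRCC6 (−0.13) and XRCC5 (−0.10). In sgIGF2BP3 cells they were BARD1 (−0.33), CHEK2 (−0.25), MRE11 (−0.22), XRCC2 (−0.21), BRIP1 (−0.21), RAD51C (−0.20), BRCA1 (−0.18) and XRCC6 (−0.11), and 5 members were called in all without DMSO replicate 2 or siControl replicate 3.

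Some counts of these genes may hold reads of a neighbour. Of the members, 14 share annotated exon bases with another counted gene on the opposite strand and CHEK1 and NHEJ1 with one on the same strand. Only genes with counts in these data were searched, so an overlap with an uncounted gene would be missed. The strand setting of the deposited counts is not given in the sources used here. XRCC3 shares 5756 bases with KLC1, which was at 0.08 with Dox in sgIGF2BP2 cells and 0.03 with siIGF2BP2. FANCA shares 2302 bases with ZNF276, which moved the other way with Dox in sgIGF2BP2 cells (0.21) and the same way with siIGF2BP2 (0.20). EME1 shares 541 bases with LRRC59, which lies beside it on 17q and fell with Dox in sgAAVS1 (−0.22) and sgIGF2BP2 cells (−0.09) and was at −0.0015 with siIGF2BP3. FANCI shares 458 bases with POLG, which was at 0.09 with Dox in sgIGF2BP2 cells and fell by 0.13 with siIGF2BP2. CHEK1 shares 80 bases with STT3A, which fell by 0.14 with Dox in sgIGF2BP2 cells.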

How the data were processed

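RNA was measured by SLAMseq library preparation (poly(A) RNA, directional kit, per the labels' protocols). The authors deposited whole-number counts of reads per gene for 40 libraries, not normalized; bcl2fastq 2.20.0.422, STAR 2.7.5c and hg38 are named in the submitters' processing notes, and the counting tool is not given in the sources used here. T-to-C conversions were not used, so old and newly made RNA are summed in each value. Symbols, exons and positions came from GENCODE release 29 (GRCh38).

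Counts were fitted with edgeR 4.0.16 (R 4.3.3; TMM scaling, filterByExpr by group, quasi-likelihood test, 1 coefficient per group, all 40 libraries), with Benjamini-Hochberg adjustment over 11428 genes and a threshold of 0.05 in 11 comparisons. SE is the log2 fold change divided by the square root of F. CPM use TMM-scaled totals. In simulated data for Dox in sgIGF2BP2 cells (11428 genes), 60% of 1.2-fold and 89% of 1.5-fold changes were recovered. Values of named members follow a rule: up to 8 called members per comparison by size, and all members on chromosome 17 in Dox comparisons. Other genes are named by a limit of 3 per direction, and further members and overlap partners for context after their values were seen. Members and lists were chosen with earlier results of these data known. Same-numbered replicates did not deviate together (highest correlation 0.0924), so they were not paired. Alternatives were RLE scaling, DESeq2 1.42.0, no filter, a mean of 5 CPM, only the groups compared, the replicate block, thinning and leaving out each library.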

Additional observations from a re-analysis of the deposited data

Results flagged for a closer look

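Of 250 groups of 4 libraries examined (25 members in 10 groups), 11 held a library whose gap to the nearest other exceeded Dixon's critical share of the group's range, and chance alone gives about 1 in 20. With siIGF2BP2 these were BRIP1 (25.2 CPM against 30.5 to 31.3), PRKDC (374.7 against 461.4 to 465.7) and XRCC2 (37.8 against 42.7 to 43.3), all in replicate 3, and FANCE (30.4 against 27.7 to 28.0) and FANCF (16.4 against 13.5 to 13.9) in other replicates. The others were FANCD2 with Dox in sgAAVS1 cells (42.7 against 38.7 to 39.4), XRCC6 with Dox in sgIGF2BP3 cells (630.4 against 602.1 to 606.4), and FANCI (177.8 against 163.2 to 164.8) and RBBP8 (37.2 against 41.2 to 42.0) with siControl in sgIGF2BP2 cells. CHEK1 (51.2 against 45.5 to 46.2) and RAD50 (3.08 against 1.83 to 1.99) stood out with DMSO in sgIGF2BP2 cells.

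A test of the difference itself passed for 22 values (edgeR's quasi-likelihood interaction, adjusted over all tested genes). Between sgIGF2BP2 and sgAAVS1 cells the Dox effect differed for FANCI (−0.20), POLQ (−0.31) and CHEK1 (−0.26). Between sgIGF2BP3 and sgAAVS1 cells it differed for FANCA (0.21), FANCD2 (0.22), FANCE (0.29), EME1 (0.65), SLX4 (0.28) and XRCC3 (0.30). Between sgIGF2BP3 and sgIGF2BP2 cells it differed for FANCA (0.30), FANCD2 (0.34), FANCI (0.21), EME1 (0.58), MUS81 (0.24), XRCC2 (0.31) and XRCC3 (0.27). Between siIGF2BP3 and siIGF2BP2 the effect differed for FANCA (−0.16), RNF168 (−0.26), DCLRE1C (−0.46), PRKDC (0.14), RAD54L (−0.25) and XRCC3 (−0.23). Of 23 alternatives, the sgIGF2BP3 minus sgAAVS1 call was lost in 16 for FANCD2 and 8 for SLX4. The sgIGF2BP3 minus sgIGF2BP2 call was lost in 10 for MUS81. The siRNA call was lost in 13 for FANCA, 9 for PRKDC and 8 for RNF168. Each other call was lost in 7 or fewer.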

How the results depend on the processing

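Of 1615 alternative values for 89 named results, 1418 kept their direction and side of the threshold, 159 lost the call and 38 changed sign. The named results include uncalled chromosome 17 members in the Dox comparisons, which had no call to lose. The 159 therefore all belong to called results, and the 1418 include values of uncalled ones. The 38 belong to RAD51D, RAD51C and BRCA1, none called and all near 0. When thinned to the smallest total, RAD51D was at 0.0075 with Dox in sgAAVS1 cells, and its differences were −0.075 (sgIGF2BP3 minus sgAAVS1) and −0.044 (sgIGF2BP3 minus sgIGF2BP2); RAD51C was at −0.018 (sgIGF2BP3 minus sgAAVS1). With the filter at a mean of 5 CPM, RAD51D was at 0.0022 (sgIGF2BP2 minus sgAAVS1).

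Leaving out 1 library at a time, RAD51D ran from −0.066 to 0.0066 with Dox in sgAAVS1 cells, −0.082 to 0.021 in sgIGF2BP2 cells and −0.053 to 0.016 in sgIGF2BP3 cells, and its differences from −0.056 to 0.046 (sgIGF2BP2 minus sgAAVS1), −0.027 to 0.051 (sgIGF2BP3 minus sgAAVS1) and −0.036 to 0.067 (sgIGF2BP3 minus sgIGF2BP2). RAD51C ran from −0.080 to 0.0093 with Dox in sgIGF2BP2 cells and from −0.018 to 0.068 as sgIGF2BP3 minus sgAAVS1, where BRCA1 ran from −0.081 to 0.015. Counts of called members ran, with Dox, from 7 to 9 in sgAAVS1, 15 to 21 in sgIGF2BP2 and 0 to 1 in sgIGF2BP3 cells; from 13 to 17 with siIGF2BP2 and 0 to 1 with siIGF2BP3; from 1 to 6, 2 to 7 and 5 to 7 for the 3 differences in the order above; from 2 to 7 for siIGF2BP3 minus siIGF2BP2; and from 5 to 7 and 5 to 8 for siControl against DMSO in sgIGF2BP2 and sgIGF2BP3 cells. Thinning left 0 calls with siIGF2BP3 and 3 for sgIGF2BP3 minus sgIGF2BP2. The cause was not tested.

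Same-numbered replicates did not deviate together, and with the replicate block 20 members fell with Dox in sgIGF2BP2 cells, 9 in sgAAVS1 cells and 19 changed with siIGF2BP2, so no count moved by over 1.5 times. Members under about 5 CPM, such as RAD50 and RAD51B, had the widest errors.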
